A study of Mus musculus with 9 samples.

Results

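The CDK inhibitors and the p53 axis were described in sorted splenic B cells as 9 genes chosen by symbol, out of the 24346 genes with a value in each library. They were the Cip/Kip inhibitors Cdkn1a and Cdkn1b, the INK4 inhibitors Cdkn2a, Cdkn2b, Cdkn2c and Cdkn2d, the tumor suppressor Trp53, its antagonist Mdm2 and the p53 target Ccng1, and all 9 had a value in all 9 libraries. B cells of wild-type C57BL6 mice were sorted by surface markers into 3 groups of 3 libraries, from 3 mice each. FO B (Young) were follicular B cells (B220hi CD43- CD23+ CD21lo) of mice 8 weeks of age, FO B (Aged) were the same population at 50 weeks, and ABCs (Aged) were age-associated B cells (B220hi CD43- CD23- CD21lo CD11b+ CD11c+) at 50 weeks. No group carried a transgene or received a treatment. Age was therefore compared in FO B cells alone, and ABCs were compared with FO B cells of the same age and of young mice.

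CDK inhibitors bind cyclin-dependent kinases and hold cells before S phase. INK4 proteins bind CDK4 and CDK6 and keep them from D-type cyclins, whereas Cip/Kip proteins bind cyclin and CDK together. The transcription factor p53 is kept low by the ubiquitin ligase Mdm2, which is itself a p53 target, as are Cdkn1a and Ccng1. Resting splenic B cells are non-dividing until they meet antigen or TLR ligands, and Cdkn2a is widely used as a marker of cellular senescence.

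Sequence upstream of the start site is shown for the members whose promoter matched the p53 half-site, the 10-base unit of the p53 response element, and for Cdkn2b, most of whose reads were in ABCs. In RefSeq (GRCm38.p6), all 9 members had a promoter entry, with 12 promoters in total. The 250 bases before each start were searched on both strands, and p53 half-sites were found in 5 of the 12 (in 1 promoter each of Cdkn1a, Cdkn2d, Trp53, Mdm2 and Ccng1), where 7.13% of all 32851 promoter windows of this length had one. A match of letters is a description and was not taken as a binding site. Capitals mark the half-sites in these 3 windows, at chr17:29090729-29090978 (plus strand) for the upstream promoter of Cdkn1a, chr10:117710759-117711008 (minus strand) for Mdm2 and chr11:40755287-40755536 (minus strand) for Ccng1. The internal promoter of Mdm2, in its first intron, through which p53 is known to act, lies outside this window.
Cdkn1a: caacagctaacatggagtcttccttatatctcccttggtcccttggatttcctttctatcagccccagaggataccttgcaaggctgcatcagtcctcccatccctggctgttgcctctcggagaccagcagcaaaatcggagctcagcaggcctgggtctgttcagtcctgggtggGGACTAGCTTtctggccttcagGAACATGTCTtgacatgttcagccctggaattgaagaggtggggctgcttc
Mdm2: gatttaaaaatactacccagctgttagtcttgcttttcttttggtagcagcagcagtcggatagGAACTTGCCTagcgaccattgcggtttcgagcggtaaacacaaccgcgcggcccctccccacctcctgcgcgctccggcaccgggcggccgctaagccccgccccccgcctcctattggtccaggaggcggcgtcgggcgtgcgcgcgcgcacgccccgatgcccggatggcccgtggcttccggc
Ccng1: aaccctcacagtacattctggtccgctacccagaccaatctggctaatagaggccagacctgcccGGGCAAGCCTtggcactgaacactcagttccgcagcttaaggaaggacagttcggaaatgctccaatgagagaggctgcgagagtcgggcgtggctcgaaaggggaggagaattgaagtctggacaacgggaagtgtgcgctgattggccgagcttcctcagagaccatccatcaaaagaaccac
The other half-sites are shown with 10 bases on either side, at chr11:69580274-69580303 (plus strand) for Trp53 and chr9:21291292-21291321 (minus strand) for Cdkn2d, again with the match in capitals.
Trp53: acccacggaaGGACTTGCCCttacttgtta
Cdkn2d: ggcctggggcGGGCTTGCCTcgcccactag
The Cdkn2b window, at chr4:89311033-89311282 (minus strand), held no p53 half-site but a cAMP response element (TGACGTCA), in capitals, a motif present in 1.55% of all windows.
Cdkn2b: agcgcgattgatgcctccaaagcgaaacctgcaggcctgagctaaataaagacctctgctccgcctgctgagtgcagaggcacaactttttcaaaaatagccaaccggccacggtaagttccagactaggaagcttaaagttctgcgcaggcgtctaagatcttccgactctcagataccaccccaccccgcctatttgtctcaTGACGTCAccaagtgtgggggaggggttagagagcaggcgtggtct
Of the other motifs, the GC box (GGGCGG) was found in 6 member promoters and 32.7% of all windows, and the CCAAT box (CCAAT) in 5 and 33.9%. The FOXO site (GTAAACA) was found in Mdm2 alone and in 3.17% of all windows. No member window held the E2F core (TTCGCGC, 1.28% of all windows), the T-box core (AGGTGTGA, 1.12%) or the ETS core (CCGGAAGT, 2.88%). None of these motifs contains another.

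Expression was measured as FPKM, which scales the reads of a gene to its transcript length and to the depth of the library, so levels can be set side by side between genes. The depth estimated from the FPKM values was 7330000 to 8910000 mapped reads per library, and 10032 to 10445 genes per library reached 1 FPKM. Differences were tested with limma on log2(FPKM + 1), at a false discovery rate (FDR) under 0.05. Genes averaging under 1 FPKM in the libraries compared were left out of this test, which kept 6 of the 9 members between ABCs and FO B (Aged). Fold changes on this scale, given with their standard error (SE), are too small for low genes. Group means were also compared by exact permutation (two-sided), which for 3 against 3 libraries cannot give a p below 0.1. B lineage markers (Cd79a, Cd79b and 5 others) summed to 6578 to 8432 FPKM in every library. Of these 7 genes, 4 passed between ABCs and FO B (Aged), beside 35.9% of all genes tested. Cd22 (log2 fold change 1.06, limma FDR = 6.33e-05) and Blk (0.50, limma FDR = 0.00168) were higher in ABCs. Pax5 (-0.52, limma FDR = 0.00625) and Ebf1 (-0.74, limma FDR = 0.0123) were lower. ABC libraries also differed from FO B (Aged) in transcripts of other cell types, given after the results of the members.

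Between ABCs and FO B (Aged), 5 of the 6 members tested passed the threshold, 4 higher and 1 lower in ABCs, where 35.9% of all genes tested passed it, 19.4% higher and 16.5% lower. Cdkn2d, Ccng1, Cdkn2c and Mdm2 were higher in ABCs and Trp53 was lower, while Cdkn1b did not pass. Between FO B (Aged) and FO B (Young), 0 of the 6 members tested passed, beside 0.464% of all genes, and 0 members had an unadjusted limma p under 0.05, beside 1298 of 10122 genes. Under the alternatives, 3 members reached that unadjusted level but did not pass. They were Mdm2 without FO B (Young) replicate 3 (log2 fold change 0.22, limma FDR = 0.273), Cdkn1b without FO B (Aged) replicate 2 (0.25, limma FDR = 0.352) and Cdkn2d with no filter (0.12, limma FDR = 0.478). In bulk libraries, fewer cells of a type and less RNA per cell cannot be told apart. The lowest unadjusted p of a member in the age comparison was 0.0577, for Cdkn2d. Between ABCs and FO B (Young), 4 of 6 passed, 3 higher and 1 lower, beside 40.7% of all genes, 21.6% higher and 19.1% lower. The comparisons with ABCs share the ABC libraries and are therefore not independent. The libraries did not overlap for 6 of the 9 members between ABCs and FO B (Aged), beside 52.6% of the genes tested, for the same 6 between ABCs and FO B (Young), beside 55.3%, and for 1 of 9, Cdkn2d, between FO B (Aged) and FO B (Young), beside 18.6%. The 6 include Cdkn2b, which was under the filter and so is not among the genes behind these percentages.

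**Figure D1:**
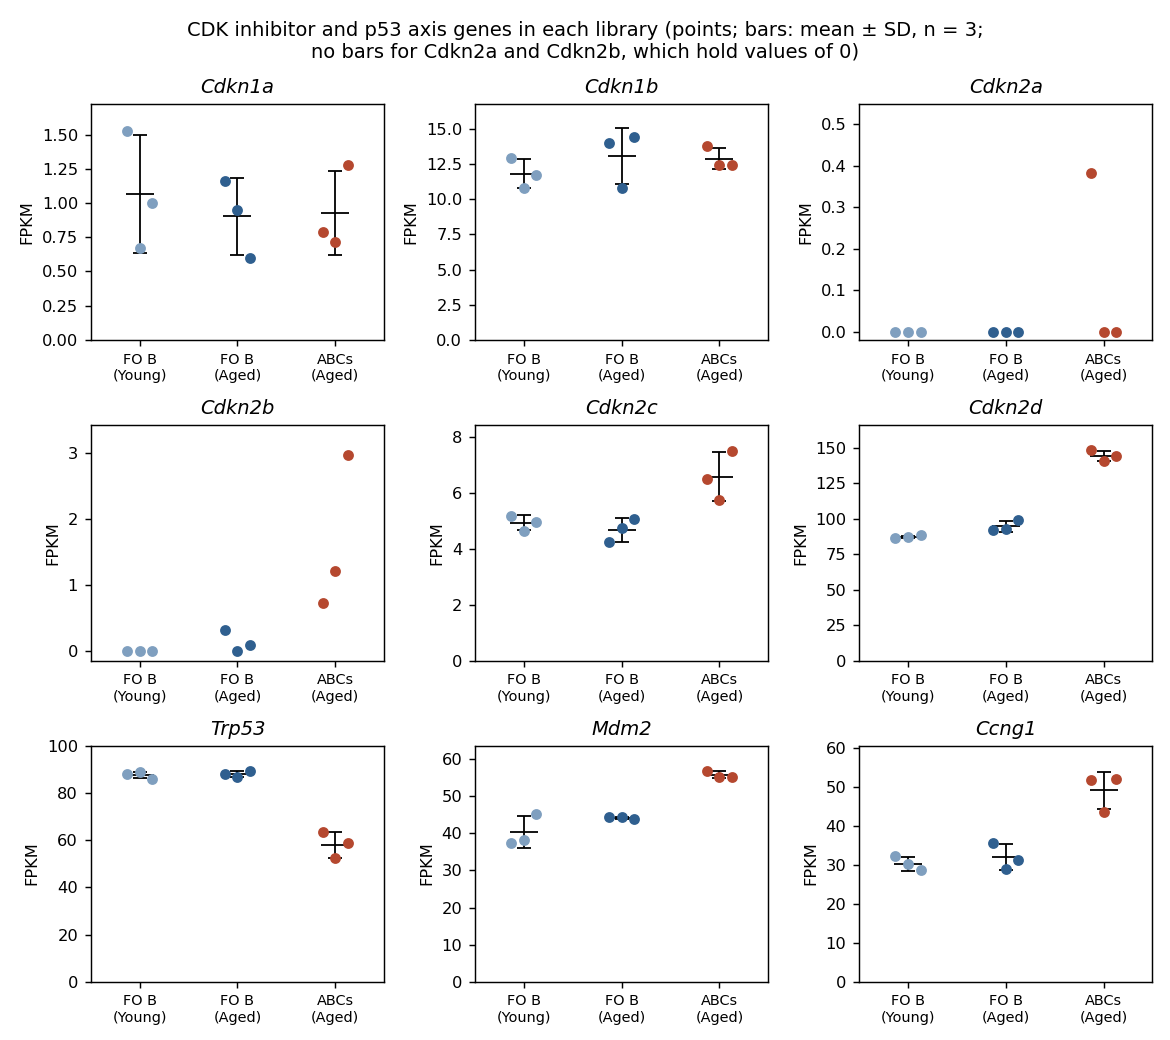
Expression (FPKM, linear axes) of the 9 members in each library of FO B (Young), FO B (Aged) and ABCs (Aged). Points are libraries and bars are the mean ± SD (n = 3), left out for Cdkn2a and Cdkn2b. Cdkn2d, Mdm2 and Ccng1 sit higher and Trp53 lower in all 3 ABC libraries than in any FO B library.

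Among the INK4 genes, Cdkn2d, which encodes p19Ink4d, was the most abundant. It lies on chromosome 9 (GENCODE M21 on GRCm38, chr9:21288410-21291407, minus strand). Its FPKM was 86.5, 86.9 and 88.3 in the FO B (Young) libraries, 92.3, 92.6 and 99.4 in FO B (Aged) and 148, 141 and 144 in ABCs. All 3 ABC libraries were above all FO B libraries, and all aged FO B libraries were above all young ones. The means were 87.2 ± 0.950, 94.8 ± 4.01 and 144 ± 3.76 FPKM (SD, n = 3). ABCs were 1.52-fold of FO B (Aged), a log2 fold change of 0.60 (SE 0.06, limma FDR = 0.000476), and 1.65-fold of FO B (Young), a log2 fold change of 0.72 (SE 0.05, limma FDR = 0.000105). The age difference in FO B cells was 0.12 (SE 0.05, limma FDR = 0.409), with a 95% confidence interval of -0.0048 to 0.24, and did not pass (exact permutation p = 0.1, the smallest possible). Cdkn2d ranked at percentiles 87.9 to 88.5 of genes at 1 FPKM or more in the young libraries and 92.4 to 93.0 in ABCs.

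Cdkn2c, which encodes p18Ink4c, known for its part in plasma cell differentiation, was far lower. The gene lies at chr4:109660876-109667189 (minus strand). It had 5.20, 4.66 and 4.97 FPKM in FO B (Young), 4.24, 4.75 and 5.07 in FO B (Aged) and 6.52, 5.74 and 7.52 in ABCs. The ABC libraries were again above all FO B libraries, whereas the FO B groups overlapped. The log2 fold change was 0.41 (SE 0.13, limma FDR = 0.0438) against FO B (Aged), 0.35 (SE 0.12, limma FDR = 0.0573) against FO B (Young), and -0.06 (SE 0.11, limma FDR = 0.865) with age in FO B cells. The call against FO B (Aged) was close to the threshold and was lost under 10 of the 16 alternatives that kept this threshold, 5 of them the omission of 1 library (FO B (Aged) replicate 1, 2 or 3, or ABCs replicate 1 or 3), with an FDR up to 0.132 without FO B (Aged) replicate 1. Its FDR against FO B (Young) was 0.036 to 0.156 over the alternatives.

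Cdkn2b and Cdkn2a are neighbors on chromosome 4, at chr4:89306299-89311039 and chr4:89274471-89294653 (both minus strand), 11645 bases apart, and encode p15Ink4b and, from the 2 annotated Cdkn2a transcripts, p16Ink4a and p19Arf. Cdkn2b was listed at 0 in all 3 FO B (Young) libraries, at 0.312, 0 and 0.0952 FPKM in FO B (Aged) and at 0.722, 1.21 and 2.97 FPKM in ABCs. Whole reads, recovered from the steps in which low FPKM values occur, were 0 in each young library, 3, 0 and 1 in FO B (Aged) and 7, 13 and 29 in ABCs. Every ABC library thus had more Cdkn2b reads than any FO B library, and the ABC libraries differed among themselves by more than the FO B libraries did. Per mapped read, ABCs had 12.9-fold the Cdkn2b reads of FO B (Aged), 49 reads against 4 (95% exact binomial interval 4.73 to 49.3, counting error only). Against FO B (Young), the ratio was 17.0 with the 0 reads of that group set to a floor of 3. This ratio leaves out the counting error of the ABC reads and is not a lower confidence limit. The ratio of 12.9 was 7.79 without ABCs replicate 3, and 36.0 or 8.17 when replicate 1 or 2 of FO B (Aged) was omitted. The ratio of 17.0 was 10.2 without ABCs replicate 3 and 11.3 when replicate 1 of FO B (Young) was omitted. The exact permutation test gave p = 0.1, the smallest possible, for ABCs against either FO B group and p = 0.4 for age in FO B cells. Cdkn2b was under the filter of limma. With no filter, its log2 fold change was 1.13 against FO B (Aged) (limma FDR = 0.0497) and 1.31 against FO B (Young) (limma FDR = 0.0228). Leaving out 1 FO B (Aged) library brought the gene over the filter. In these 3 fits the difference from FO B (Aged) did not pass, with limma FDR of 0.0609, 0.0895 and 0.086 without replicate 1, 2 and 3. TPM scaling also brought it over the filter, and it passed at 1.37 against FO B (Aged) (limma FDR = 0.0254) and 1.61 against FO B (Young) (limma FDR = 0.0101).

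Cdkn2a was listed at 0 in 8 of the 9 libraries and at 0.383 FPKM in ABCs replicate 1. No whole read could be assigned to that value. It was under the filter of limma, and with no filter its log2 fold change was 0.16 between ABCs and FO B (Aged) (95% confidence interval -0.15 to 0.46, limma FDR = 0.477). With 1 library above 0, these values do not allow the groups to be compared. The gene-level value does not separate p16Ink4a from p19Arf.

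**Figure D2:**
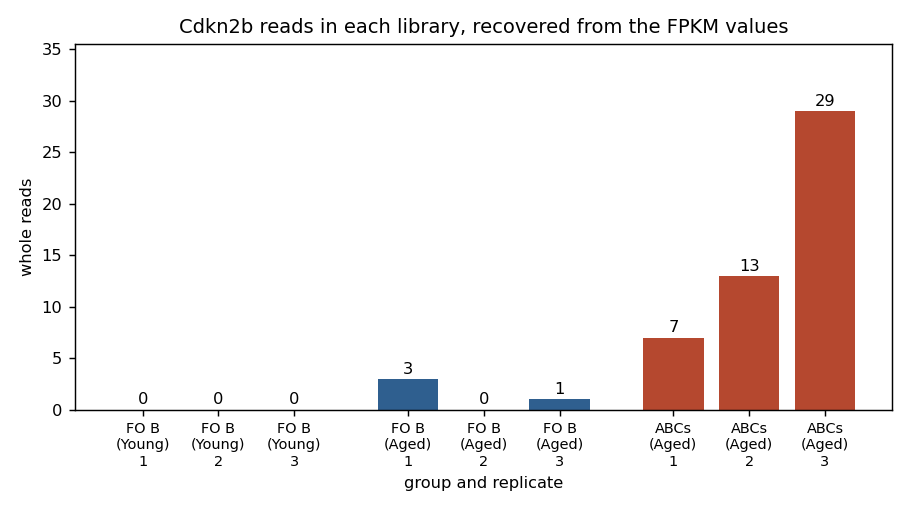
Whole Cdkn2b reads in each library (linear axis from 0), recovered from the FPKM values, with 1 bar per library. The ABC libraries hold 7, 13 and 29 reads and the FO B libraries at most 3.

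Of the Cip/Kip genes, Cdkn1b, which encodes p27Kip1, the inhibitor associated with quiescent lymphocytes, had overlapping values in the 3 groups. It lies at chr6:134920401-134925513 (plus strand). Its FPKM was 12.9, 10.8 and 11.8 in FO B (Young), 14.0, 10.8 and 14.4 in FO B (Aged) and 13.8, 12.5 and 12.5 in ABCs, from 209 to 282 recovered reads per library. The log2 fold change was -0.01 (SE 0.12, limma FDR = 0.952) between ABCs and FO B (Aged), with a 95% confidence interval of -0.30 to 0.28. It was 0.13 (SE 0.12, limma FDR = 0.724) with age in FO B cells, with an interval of -0.15 to 0.41, and 0.12 (SE 0.10, limma FDR = 0.373) between ABCs and FO B (Young). Cdkn1b passed in 0 of the 3 comparisons.

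Cdkn1a encodes p21Cip1, the CDK inhibitor best known as a p53 target, and was near 1 FPKM throughout. The gene spans chr17:29090976-29100727 (plus strand) and overlaps the opposite-strand entry AC167363.2, whose reads cannot be told apart from it without strand. It had 1.52, 0.670 and 1.0 FPKM in FO B (Young), 1.16, 0.952 and 0.596 in FO B (Aged) and 0.789, 0.714 and 1.28 in ABCs. These were 9 to 23 recovered reads per library, with 48, 41 and 40 reads over the groups, and the 3 groups overlapped. With a mean under 1 FPKM it was outside the limma test of ABCs against FO B (Aged), and the exact permutation test of mean FPKM gave p = 1.0 for that comparison, 0.6 for age and 0.7 for ABCs against FO B (Young). The ABC libraries of Cdkn1a thus overlapped both FO B groups, whereas those of Mdm2 and Ccng1, the other p53 targets among the members, did not. At so few reads a library, counting error limits which difference could be detected.

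The 6 CDK inhibitors together had 105 ± 1.72 FPKM in FO B (Young), 114 ± 5.41 in FO B (Aged) and 166 ± 5.01 in ABCs (SD, n = 3). Cdkn2d made up most of the sum in every library, 83.0 ± 1.43% in FO B (Young), 83.5 ± 1.27% in FO B (Aged) and 86.7 ± 0.976% in ABCs (SD, n = 3). The INK4 genes jointly made up 87.7 ± 1.24%, 87.7 ± 1.39% and 91.7 ± 0.212% (SD, n = 3). The ratio of Cdkn2d to Cdkn1b FPKM was 6.70, 8.02 and 7.51 in FO B (Young), 6.59, 8.56 and 6.88 in FO B (Aged) and 10.8, 11.3 and 11.6 in ABCs. These shares and ratios follow from the levels of the members given above and were not tested.

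Trp53 was the 1 member that passed the test as lower in ABCs. The gene lies at chr11:69580359-69591873 (plus strand). Its FPKM was 87.9, 88.8 and 86.1 in FO B (Young) and 88.1, 86.9 and 89.2 in FO B (Aged), and 63.3, 52.3 and 58.9 in ABCs. FO B libraries of both ages lay within a narrow band, and each ABC library was below it. The means were 87.6 ± 1.36, 88.1 ± 1.13 and 58.2 ± 5.53 FPKM (SD, n = 3), and ABCs were at 0.660 of the FO B (Aged) mean. Trp53 fell by 0.59 on the log2 scale against FO B (Aged) (SE 0.08, limma FDR = 0.00162) and by 0.59 against FO B (Young) (SE 0.08, limma FDR = 0.00134). With age in FO B cells the log2 fold change was 0.01 (SE 0.05, limma FDR = 0.966), with an interval of -0.10 to 0.12.

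Mdm2 encodes the ubiquitin ligase that targets p53 for degradation, and lies at chr10:117688875-117710758 (minus strand). It had 37.5, 38.2 and 45.3 FPKM in FO B (Young), 44.3, 44.4 and 43.9 in FO B (Aged) and 56.9, 55.2 and 55.3 in ABCs. The ABC libraries were above all FO B libraries, and FO B (Young) replicate 3 reached the aged FO B range. Mdm2 rose 1.26-fold against FO B (Aged), a log2 fold change of 0.33 (SE 0.06, limma FDR = 0.00510), and 1.38-fold against FO B (Young), a log2 fold change of 0.46 (SE 0.09, limma FDR = 0.00480). The age difference in FO B cells was 0.13 (SE 0.08, limma FDR = 0.526), with an interval of -0.05 to 0.32.

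Ccng1 encodes cyclin G1, a p53 target that binds the phosphatase PP2A and acts on Mdm2, and lies at chr11:40748552-40755311 (minus strand). Its FPKM was 32.1, 30.3 and 28.5 in FO B (Young), 35.5, 28.9 and 31.2 in FO B (Aged) and 51.6, 43.6 and 52.0 in ABCs. All ABC libraries were above all FO B libraries, and the FO B groups overlapped. Ccng1 rose 1.54-fold against FO B (Aged), a log2 fold change of 0.61 (SE 0.11, limma FDR = 0.00453), and by 0.67 (SE 0.09, limma FDR = 0.00132) on the log2 scale against FO B (Young). The age difference in FO B cells was 0.07 (SE 0.09, limma FDR = 0.807).

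The ratio of Mdm2 to Trp53 FPKM was taken in each library as a description, after the 2 genes had been seen to differ in opposite directions. It was 0.427, 0.430 and 0.526 in FO B (Young), 0.503, 0.511 and 0.493 in FO B (Aged) and 0.899, 1.05 and 0.940 in ABCs. The mean ratio in ABCs, 0.964 ± 0.0809 (SD, n = 3), was 1.92 times that of FO B (Aged), 0.502 ± 0.00923, a difference that the values of the 2 genes already fix. The ratio of Ccng1 to Trp53 was 0.346 ± 0.0177 in FO B (Young), 0.362 ± 0.0367 in FO B (Aged) and 0.843 ± 0.0352 in ABCs (SD, n = 3). Across the alternatives, the calls of Cdkn2d, Trp53, Mdm2 and Ccng1 between ABCs and FO B (Aged) held in 16 of the 16 that kept the threshold, with FDR no higher than 0.0043, 0.0104, 0.0245 and 0.0219, respectively.

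**Figure D3:**
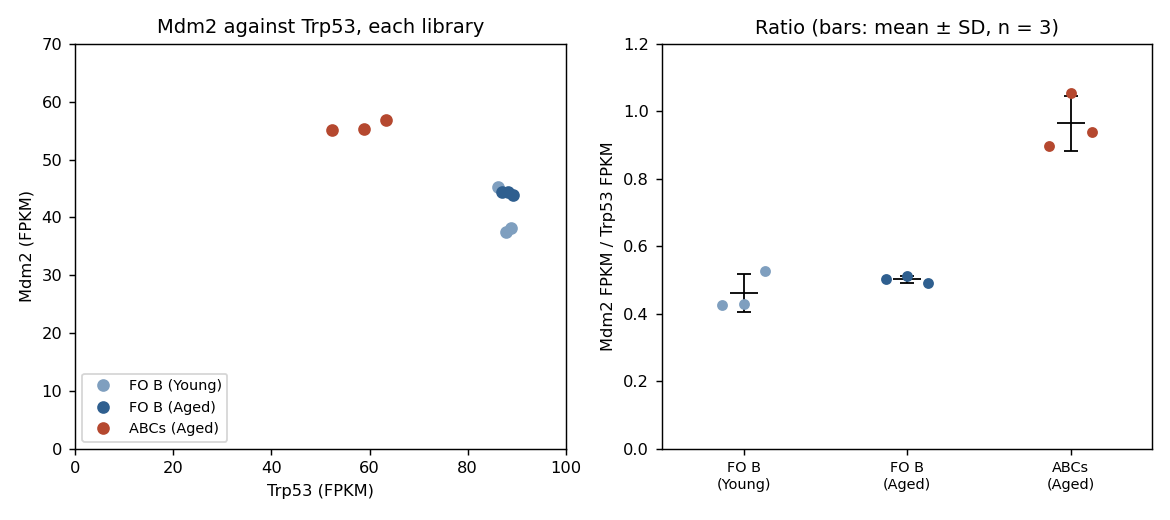
Left, Mdm2 against Trp53 FPKM in each of the 9 libraries (linear axes), and right, the ratio of Mdm2 to Trp53 FPKM by group with the mean ± SD (n = 3). The ABC libraries hold lower Trp53 with higher Mdm2, at ratios of 0.899 to 1.05 (FO B libraries, 0.427 to 0.526).

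**Figure D4:**
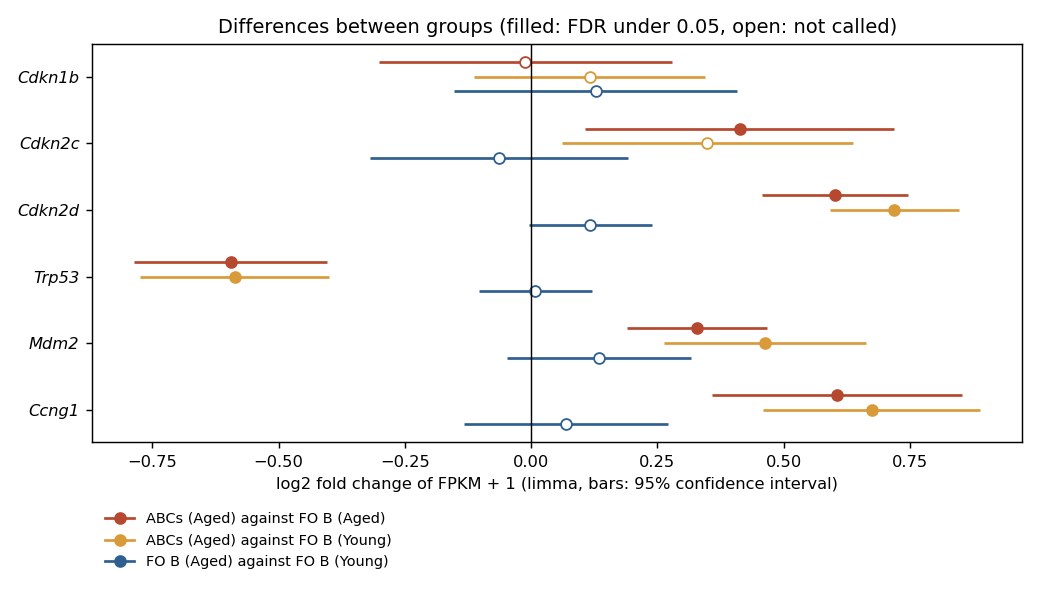
Log2 fold change of FPKM + 1 from limma for the 6 members tested in the 3 comparisons, with 95% confidence intervals. Filled points passed an FDR of 0.05 and open points did not. All age differences in FO B cells are open, and Trp53 is the 1 member with filled points below 0.

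In FO B (Young), the members ranked, by mean FPKM, Trp53, Cdkn2d, Mdm2, Ccng1, Cdkn1b, Cdkn2c and Cdkn1a, with Cdkn2a and Cdkn2b at 0, and the ranges of Trp53 and Cdkn2d overlapped. In FO B (Aged), Cdkn2d ranked above Trp53 with no overlap, and the order of the other genes down to Cdkn1a was as in FO B (Young). In ABCs, Cdkn2d was first, the ranges of Trp53 and Mdm2 overlapped, and Cdkn2b and Cdkn1a overlapped with each other. Trp53 ranked at percentiles 88.1 to 88.2 of genes at 1 FPKM or more in FO B libraries of both ages and 80.6 to 83.5 in ABCs. In ABCs, Mdm2 was at percentiles 81.0 to 81.8 and Ccng1 at 76.9 to 80.1, against 76.6 to 77.2 and 67.2 to 71.8 in FO B (Aged).

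Paralogues of the members, and Cdkn3, were read as well. Ccng2, the paralogue of Ccng1, had 63.9 ± 5.36 FPKM in FO B (Aged) and 65.5 ± 7.98 in ABCs (SD, n = 3), a log2 fold change of 0.03 (SE 0.11, limma FDR = 0.835). Mdm4, the partner of Mdm2 that blocks p53 activity, had 30.3 ± 1.01 and 30.2 ± 3.46 FPKM, a log2 fold change of -0.01 (SE 0.10, limma FDR = 0.951), and 0.22 (SE 0.07, limma FDR = 0.237) with age. Neither passed in any of the 3 comparisons. The third Cip/Kip gene, Cdkn1c, was at 0.0699 to 0.720 FPKM in ABCs and 0.0726 to 1.02 in FO B (Aged). Of the p53 family, Trp63 was at or below 0.129 FPKM in every library, and Trp73 at or below 0.0264 in FO B libraries and 1.10, 0.339 and 0.0851 FPKM in ABCs. Cdkn3, a phosphatase that acts on CDKs, rose from 1.06 ± 0.0505 FPKM in FO B (Aged) to 3.16 ± 1.02 in ABCs (SD, n = 3), a log2 fold change of 0.98 (SE 0.20, limma FDR = 0.00781).

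Of 32 p53 target genes listed besides the members, 28 were tested between ABCs and FO B (Aged), of which 8 rose and 6 fell, beside 19.4% and 16.5% of all genes tested. The median log2 fold change was 0.24, beside -0.01 over all genes tested. Of these genes, 3 averaged under 1 FPKM in FO B (Aged) and passed the filter only through ABCs, among them 2 that rose. Of the other 25, 6 rose and 6 fell, with a median of 0.10. Fas, a death receptor, rose from 12.7 ± 1.46 to 108 ± 8.15 FPKM (SD, n = 3), a log2 fold change of 2.99 (SE 0.10, limma FDR = 6.69e-06). Sesn2, a stress-responsive inhibitor of mTORC1 signaling, rose from 3.50 ± 0.524 to 17.8 ± 2.56 FPKM, a log2 fold change of 2.06 (SE 0.14, limma FDR = 0.000108). Its paralogue Sesn1 had 81.8, 91.0 and 80.8 FPKM in FO B (Aged) and 31.7, 47.7 and 12.2 in ABCs, a log2 fold change of -1.63 (SE 0.42, limma FDR = 0.0216). Sfn, which encodes 14-3-3 sigma, fell from 22.2 ± 2.19 to 3.03 ± 1.32 FPKM (limma FDR = 0.000282). The count of 14 stood beside 3739 of the 10412 genes tested. It was 9 without FO B (Aged) replicate 1, where 2550 of 10429 genes passed. It was also 9 without replicate 3, where 2659 of 10437 passed. Between FO B (Aged) and FO B (Young), 0 of 25 targets tested passed (median 0.03, 0.00 over all genes).

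Of 20 listed regulators of p53, 18 were tested between ABCs and FO B (Aged), of which 1 rose and 8 fell, beside 19.4% and 16.5% of all genes tested (median -0.24, beside -0.01 over all genes). The deacetylase Sirt1 fell from 7.39 ± 1.23 to 2.87 ± 0.206 FPKM (log2 fold change -1.11, limma FDR = 0.00128). The deubiquitinase Usp7, which acts on both Mdm2 and p53, fell from 17.5 ± 2.53 to 9.04 ± 0.714 FPKM (log2 fold change -0.87, limma FDR = 0.00195). Rchy1, another ubiquitin ligase for p53, fell from 56.3 ± 1.09 to 34.0 ± 2.85 FPKM (log2 fold change -0.71, limma FDR = 0.000678), in the direction opposite to Mdm2. The 1 that rose was Trp53inp2, an autophagy protein, from 3.05 ± 0.285 to 7.41 ± 2.12 FPKM (limma FDR = 0.00690). With age in FO B cells 0 of 18 passed.

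The partners that CDK inhibitors act on were also read. Of 30 cyclins, CDKs and Rb-E2F genes, 25 were tested between ABCs and FO B (Aged), of which 9 rose and 2 fell, beside 19.4% and 16.5% of all genes tested (median 0.16). In all, 11 of the 25 passed, a share not far from the 35.9% of all genes. Without FO B (Aged) replicate 1, 7 passed, beside 2550 of 10429 genes. Without replicate 3, 7 passed, beside 2659 of 10437 genes. Ccne1, the CDK2 partner at entry into S phase, rose from 7.19 ± 0.891 to 19.7 ± 2.53 FPKM (log2 fold change 1.34, limma FDR = 0.000384), and E2f1 from 2.40 ± 0.373 to 8.44 ± 2.01 FPKM (log2 fold change 1.46, limma FDR = 0.00104). The mitotic cyclins Ccnb1 and Ccnb2 rose by 1.15 (limma FDR = 0.0295) and 1.32 (limma FDR = 0.00458) on the log2 scale. Among the targets of INK4 proteins, Cdk4 was at 124 ± 2.34 FPKM in FO B (Aged) and 138 ± 5.99 in ABCs, and Cdk6 at 6.22 ± 1.60 and 5.37 ± 1.31 (SD, n = 3). The 2 genes that fell were Cdk2 and Cdc25b. Cdk2, the partner of Ccne1, had 21.6, 24.5 and 20.6 FPKM in FO B (Aged) and 12.8, 13.9 and 16.3 in ABCs (log2 fold change -0.60, limma FDR = 0.00644). Cdc25b, a CDK-activating phosphatase, fell from 50.5 ± 5.86 to 30.5 ± 1.38 FPKM (log2 fold change -0.70, limma FDR = 0.00156). Cdk4, Cdk6, Cdk2 and Cdc25b were chosen for display after their values were seen.

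Transcripts of dividing cells were read beside Cdkn2c and Cdkn2d. Of 20 proliferation genes, 18 were tested between ABCs and FO B (Aged), of which 6 rose and 0 fell, beside 19.4% and 16.5% of all genes tested. The called share in both directions together was near the 35.9% of all genes. Of the 18, 3 passed the filter only through ABCs, and 1 of them, Mki67, was among those that rose. Of the 15 that averaged at least 1 FPKM in both groups, 5 rose and 0 fell (median 0.25). Of the 18, 3 passed without FO B (Aged) replicate 1, beside 2550 of 10429 genes. Without ABCs replicate 2, 3 passed, beside 3283 of 10356 genes. Mki67, which marks cycling cells, had 0.361, 0.675 and 0.478 FPKM in FO B (Aged) and 1.83, 1.93 and 3.49 in ABCs, and Birc5 had 2.99, 3.78 and 3.33 and 7.16, 8.88 and 15.9. The summed level of the list was 315 to 433 FPKM in ABCs and 298 to 303 in FO B (Aged). The part of dividing cells in the differences of Cdkn2c, Cdkn2d and the other members was not tested.

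Genes that control the level of CDK inhibitors moved both ways. Of 25 listed, 22 were tested between ABCs and FO B (Aged), of which 6 rose and 7 fell, beside 19.4% and 16.5% of all genes tested (median -0.02). Without FO B (Aged) replicate 1, 6 passed, beside 2550 of 10429 genes. Without replicate 3, 8 passed, beside 2659 of 10437 genes. Of the 22, 1 that rose and 1 that fell had averaged under 1 FPKM in the group where they were low. Id2 rose from 12.3 ± 0.827 to 121 ± 42.1 FPKM (log2 fold change 3.15, limma FDR = 8.93e-05) while its relative Id3 fell from 303 ± 8.32 to 36.1 ± 21.8 FPKM (log2 fold change -3.29, limma FDR = 0.00272). Both inhibit bHLH transcription factors. Myc, which represses Cdkn2b and Cdkn1a in other cells, fell from 34.8 ± 1.77 to 14.3 ± 2.95 FPKM (log2 fold change -1.24, limma FDR = 0.000862). Ezh2, the methyltransferase of the Polycomb complex that silences the Cdkn2a and Cdkn2b locus in many cells, rose from 7.91 ± 0.995 to 17.8 ± 1.40 FPKM (log2 fold change 1.08, limma FDR = 0.000543). Id2 was also the 1 gene of this list to pass with age in FO B cells, at 0.85 (SE 0.12, limma FDR = 0.0287), and did not pass in 5 of the 6 fits that left out 1 library.

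Of 18 senescence-associated genes, 5 were expressed enough to be tested between ABCs and FO B (Aged), of which 2 rose and 1 fell, beside 19.4% and 16.5% of all genes tested. Plaur, the urokinase receptor, rose from 159 ± 12.8 to 392 ± 47.8 FPKM (log2 fold change 1.30, limma FDR = 0.000201). Glb1, which encodes lysosomal beta-galactosidase, had 31.0, 28.4 and 29.0 FPKM in FO B (Young), 22.1, 21.7 and 21.3 in FO B (Aged) and 35.6, 38.8 and 42.0 in ABCs. It was thus highest in ABCs and lowest in aged FO B cells, with log2 fold changes of 0.81 (SE 0.08, limma FDR = 0.000442) between the aged groups and -0.42 (SE 0.07, limma FDR = 0.0404) with age, but the age difference passed in 0 of the 6 fits that left out 1 library. Tnf fell from 11.9 ± 0.770 to 5.77 ± 0.507 FPKM (log2 fold change -0.94, limma FDR = 0.000733). The other 13 genes, among them Il6 and Il1a, were below the filter.

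**Figure D5:**
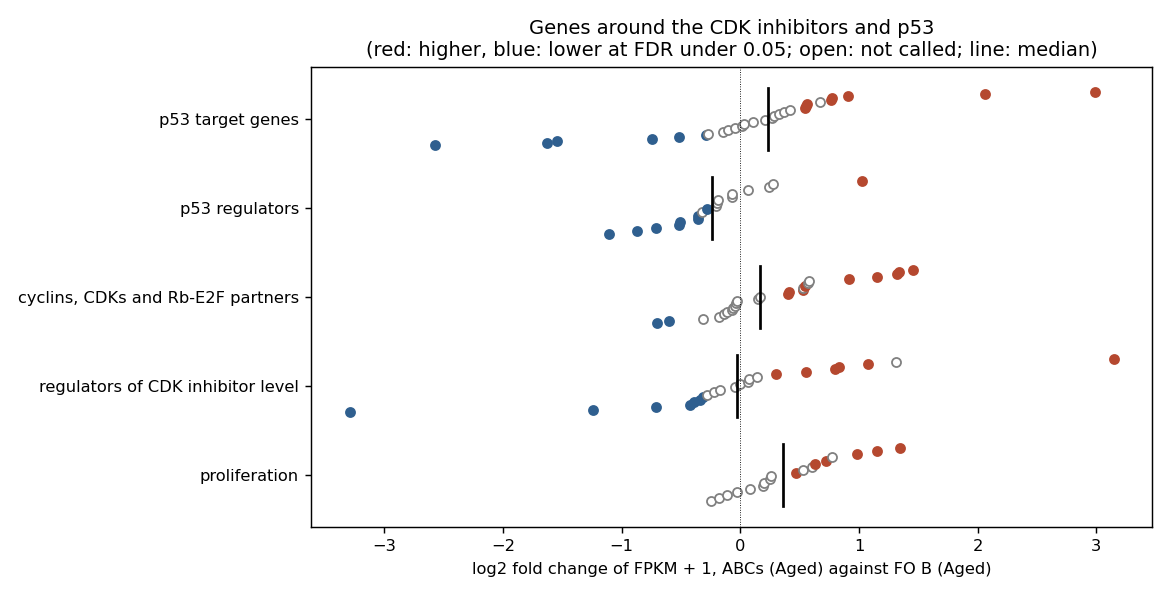
Log2 fold change of FPKM + 1 between ABCs (Aged) and FO B (Aged) for the tested genes of 5 lists around the members, 1 point per gene. Red points were higher and blue points lower at an FDR under 0.05, open points did not pass, and black lines are medians. The p53 targets spread in both directions (8 higher, 6 lower), and the p53 regulators lie mostly below 0 (1 higher, 8 lower).

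Markers of other cells were read in the same libraries, because sorted ABCs carry surface proteins shared with myeloid cells. The 11 macrophage and monocyte genes summed to 201 to 242 FPKM in ABCs and 11.8 to 19.2 in FO B (Aged), and most of the sum in ABCs was Adgre1, at 198 ± 24.1 FPKM. Of the 6 tested, 3 passed, beside 35.9% of all genes, and all 3 were higher in ABCs, beside 19.4%. They were Adgre1, Cd68, from 4.17 ± 0.882 to 10.7 ± 3.75 FPKM, and Vcam1, from 0.497 ± 0.163 to 2.69 ± 0.920 FPKM. Of the complement genes, C1qb had 1.01 ± 0.696 FPKM in FO B (Aged) and 2.01 ± 0.615 in ABCs, and C1qc had 0.720 ± 0.355 and 2.25 ± 1.82 (SD, n = 3), with overlapping libraries. These 2 and Lyz2, at 2.28 to 7.06 and 2.22 to 7.02 FPKM, did not pass. Vcam1 and C1qc averaged under 1 FPKM in FO B (Aged) and passed the filter only through ABCs, and of the other 4 tested 2 rose. The remaining 5 genes, C1qa, Csf1r, Cd14, Mertk and Fcgr1, were each below 1 FPKM in all ABC libraries. The T cell list (10 genes) summed to 5.20 to 39.4 FPKM in ABCs and 1.44 to 2.98 in FO B (Aged), most of it in ABCs Cd3g, with Cd3e at most 0.0996 FPKM. The NK cell list (7 genes) summed to 24.5 to 38.0 and 0.600 to 1.01 FPKM, most of it Prf1, with Ncr1 at most 0.0882 FPKM. In each of these 2 lists 1 gene was tested, and it was higher in ABCs, beside 19.4% of all genes. They were Cd3g (3.74, limma FDR = 0.00321) and Prf1 (4.03, limma FDR = 1.88e-05). Both averaged under 1 FPKM in FO B (Aged) and passed the filter only through ABCs. The plasma cell list (6 genes) summed to 191 to 225 and 129 to 148 FPKM. Of its 5 genes tested, 3 rose (Jchain, Sdc1 and Prdm1) and 0 fell, beside 19.4% and 16.5% of all genes. Xbp1 had a log2 fold change of 0.23 (SE 0.09, limma FDR = 0.0840) and Irf4 of -0.18 (SE 0.20, limma FDR = 0.490). Prdm1 averaged under 1 FPKM in FO B (Aged) and passed the filter only through ABCs, and of the 4 genes at 1 FPKM or more in both groups 2 rose. The neutrophil list summed to 0.128 to 1.20 and 1.09 to 24.0, the dendritic cell list to 4.39 to 8.09 and 2.93 to 5.42, and the germinal center list to 11.4 to 15.8 and 30.5 to 41.6 FPKM. Of 2 neutrophil genes tested, 1 fell (S100a9, -1.72, limma FDR = 0.0210), and of 3 germinal center genes 1 fell (Bcl6, -2.08, limma FDR = 0.000229). Of 2 dendritic cell genes tested, 1 rose (Zbtb46, 1.21, limma FDR = 0.00543). S100a9 averaged under 1 FPKM in ABCs and Zbtb46 in FO B (Aged). Whether RNA of plasma cells, or of other cells on these lists, takes part in the differences of the members was not tested.

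For each member tested over the 9 libraries, the 3 genes with the most similar profile were taken by Pearson's r of log2(FPKM + 1) among 10375 genes. These r are descriptions, since the 9 points fall into 3 groups and share their libraries. Cdkn2d was closest to Entpd1 (r = 0.998), which encodes the ectonucleotidase CD39, Fcgr2b (0.996), the inhibitory Fc receptor of B cells, and Scpep1 (0.995). Trp53 was closest to Fam102a (0.993), Mapk11 (0.992) and Rap1gds1 (0.989). Mdm2 was closest to Mdfic (0.976), Txndc17 (0.975) and Minos1 (0.974), and Ccng1 to Gatsl3 (0.989), Nagpa (0.989) and Alg5 (0.986). Cdkn2c was closest to Sod1 (0.983), Slc35c2 (0.974) and Ppa2 (0.971), and Cdkn1b, which passed in 0 comparisons, to Mterf1a (0.964), Dynll1 (0.889) and Tcp1 (0.869).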

How the data were processed

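Splenic B cells of 3 groups were measured by RNA-seq in 9 libraries. The authors deposited 1 FPKM value per gene symbol and library, from SMART-Seq HT cDNA, Nextera libraries and 101-base single-end reads on mm10. The submitters' processing notes list TopHat2 2.1.1, Bowtie2 2.2.8, SAMtools 0.1.18 and Cuffdiff 2.2.1, and the methods name other versions of the first 3. The gene annotation is not given in the sources used here, and use of strand is not stated. Groups and replicate numbers came from the sample titles.

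Here, log2(FPKM + 1) was computed and tested by lmFit and eBayes (with a trend) of limma 3.58.1 under R 4.3.3. Each fit held the 6 libraries compared and genes averaging 1 FPKM or more, with Benjamini-Hochberg FDR over all genes tested. Means were also compared by exact permutation over 20 orders. Whole reads were recovered for Cdkn1a, Cdkn1b and Cdkn2b, whose FPKM were multiples of a common step within 0.05 reads. The read ratio interval covers counting error only, and the ratio against the floor leaves out the counting error of the ABC reads. Both steps were tested on simulated data. Named genes were the members, up to 4 called genes per list with the largest change, 5 paralogues and the 3 closest profiles per member. Other list genes and markers are named to complete a count or a list and were chosen after their values were seen. The members and lists were chosen with earlier results of these data known. Of the marker lists, 2 genes are not reported here. Gene positions are from GENCODE M21 on GRCm38, the assembly behind mm10, and promoters from RefSeq. Alternatives were other pseudocounts, filters, scalings, thresholds and fits, and leaving out each library.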

Additional observations from a re-analysis of the deposited data

How the results depend on the processing

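At an absolute log2 fold change over 2.3 with an FDR under 0.01, 0 members passed between ABCs and either FO B group, and 200 genes against FO B (Aged), 230 against FO B (Young) and 2 with age passed. At an FDR under 0.01 alone, 2072, 2465 and 17 genes passed, with 4 members between ABCs and FO B (Aged). The count of genes changed with age in FO B cells was 47, and 15 with no filter, 30 without a trend, 20 with all 9 libraries in the fit and 19 to 69 with 1 library left out, while 0 members passed in each of these. With 1 library left out, 4 to 5 members passed between ABCs and FO B (Aged), beside 2550 to 3643 genes (3739 with no library left out). Between ABCs and FO B (Young), 4 to 5 passed, beside 3057 to 4163 genes (4248 with no library left out).

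For members tested in the main fits, signs reversed only for differences near 0 that passed no threshold. Cdkn1b between ABCs and FO B (Aged) was 0.0088 with upper quartile scaling, and -0.133 to 0.0596 with 1 library left out (above 0 without FO B (Aged) replicate 1 or 3, or ABCs replicate 2 or 3). With age, Ccng1 was -0.0096 to 0.13 with 1 library left out (below 0 without FO B (Aged) replicate 1). Trp53 was -0.0014 with TPM scaling and -0.0043 to 0.0175 with 1 library left out (below 0 where replicate 3 of FO B (Young) or of FO B (Aged) was omitted). The cause was not tested. Leaving out single libraries for the ratio of Cdkn2b reads, chosen after seeing the data, gave 7.79 to 36.0 against FO B (Aged).

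Libraries with the same replicate number did not consistently deviate together, and the labels do not say that a number marks a mouse. For replicates 1, 2 and 3, r was 0.0827, -0.0175 and 0.109 between ABCs and FO B (Aged). It was -0.0545, 0.141 and -0.0957 with age in FO B cells, and 0.0332, 0.0151 and -0.0403 between ABCs and FO B (Young). With the replicate number as a block, 3448, 37 and 3508 genes passed in the comparisons of ABCs with FO B (Aged), of age and of ABCs with FO B (Young), with 4, 0 and 4 members. Cdkn2c was the member lost. Depth limits Cdkn2a, Cdkn2b and Cdkn1a, which had at most 29 reads in a library where reads could be recovered.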
